A study of Homo sapiens with 8 samples.

Results

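DNA replication and S-phase genes were examined in A549 cells in which NFE2L2, the gene of the transcription factor NRF2, was silenced by RNA interference. The genes were chosen by name from what their products are known to do at replication origins and forks, in nucleotide supply, in chromatin assembly behind the fork and in entry into S phase. Earlier results of these data were known when they were chosen. Of 49 genes named, 48 were matched to an identifier among the 60291 in the count tables, and all 48 reached 10 reads in 1 or more of the 7 siRNA libraries and were tested. UHRF1 was not matched and is not analysed here. The 48 genes were part of 17811 tested genes.

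A549 is an established human lung adenocarcinoma line that has lost functional KEAP1, the adaptor that marks NRF2 for degradation, so that NRF2 is active in these cells without treatment. Short interfering RNAs guide the cellular slicer complex to mRNAs of matching sequence. The RNA was that of cells 48 h into silencing. Wells of 250000 cells were used, and the siRNA dose was 5 nmol, delivered by lipofection. The NFE2L2 siRNA group held 3 libraries, 1 for each of 3 duplexes against NFE2L2, and the control siRNA group held 4 libraries, from 2 transfections with each of 2 control duplexes. A single mock library came from cells given the Lipofectamine reagent without siRNA. All libraries were of strand-specific total RNA depleted of ribosomal RNA, from 1 cell line and 1 time point. No NFE2L2 duplex was transfected again, so its library cannot be told apart from its duplex, and p-values describe the spread between these libraries only. In such bulk RNA, fewer cells in S phase and less RNA per cell cannot be told apart.

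Before S phase, the origin recognition complex, CDC6 and CDT1 load the MCM helicase onto DNA, and CDC45 and the GINS complex later turn the loaded helicase into a moving fork. The polymerases then copy both strands with the sliding clamp PCNA, which the RFC complex loads, while ribonucleotide reductase and thymidine kinase supply deoxynucleotides. Many of these genes are transcribed at the transition from G1 to S phase under E2F transcription factors, so that their mRNAs together are widely used as a readout of cycling cells.

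Between 35525141 and 41645410 reads were counted on genes in the 7 siRNA libraries, and 39498992 in the mock library. Values of genes are given as CPM, counts per 1000000 gene counts after TMM normalization. Sums over marker or histone genes, and the limit given for 0 reads, are CPM without TMM. NFE2L2 was at 32.9, 52.0 and 29.7 CPM with NFE2L2 duplexes 1, 2 and 3, at 107 to 117 CPM in the control libraries and at 110.4 CPM in the mock library. Its log2 fold change was -1.55 (adjusted p = 0.000995, standard error 0.18). Duplex 2 left the most NFE2L2 mRNA of the 3 duplexes. NQO1, a quinone reductase and classic NRF2 target, was at 416, 583 and 461 CPM against 2072 to 2417 CPM in the controls (log2 fold change -2.19). GCLM and TXNRD1, a subunit of the glutathione-synthesising ligase and a thioredoxin reductase, had log2 fold changes of -2.52 and -2.57, with adjusted p of 4.51e-06 and 4.39e-06, and no NFE2L2 siRNA library overlapped the controls for any of these 4 genes. The epithelial keratins KRT8 and KRT18 had 111143 or more reads in every library and EPCAM 142 to 427, whereas the alveolar markers NKX2-1, SFTPB and SFTPC had at most 6 reads. CDKN2A and CDKN2B, whose locus is deleted in A549, had 0 reads in all 8 libraries, which allows a level of up to 0.0844 CPM (3 counts, counting error only). Of the 6 matched markers of other cell types, PTPRC, CD3E, VWF and HBB had at most 5 reads, and the 6 summed to 11.4, 16.7 and 17.3 CPM with NFE2L2 duplexes 1, 2 and 3 against 5.21 to 6.14 CPM in the controls, mostly from COL1A1 (331, 538 and 569 reads against 143 to 169). Their part in the results was not tested.

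With all 3 NFE2L2 duplexes taken as 1 group, MCM5 and RRM2 were the members lower than control at an adjusted p under 0.01, and 0 of 48 were higher. Among all tested genes the same rule called 1.36% lower and 1.39% higher. At an adjusted p under 0.05, 6 members were lower, with MCM3, CCNE1, ORC1 and PCNA added, where 3.54% of all tested genes were lower. That count rested on single libraries. It was 5 without duplex 1, 42 without duplex 2 and 2 without duplex 3, where MCM3, CCNE1, ORC1 and PCNA had adjusted p of 0.0531, 0.0846, 0.111 and 0.115. Without replicates 1 and 2 of control duplex 1 it was 3 and 2, and without those of control duplex 2 it was 4 and 2, while MCM5 and RRM2 stayed under 0.05 in every omission. All tested genes were not counted at 0.05 in these omissions. At 0.01, 263, 521 and 151 of all tested genes were lower without duplexes 1, 2 and 3, against 243 in the full set. An unadjusted p under 0.05 was found for 23 members and for 25.0% of all tested genes. The median log2 fold change of the members was -0.53, against 0.01 over all tested genes, and 45 of 48 values lay below 0. The groups were fully separated, with every NFE2L2 siRNA value under every control value, for 18 members, where 11.4% of all tested genes did, and 0 members lay above in this way. With DESeq2, the tool of the study, 10 members and 592 of all tested genes were lower at an adjusted p under 0.01, against 2 and 243 with the edgeR test used here. The background shares count genes of any function and level, and no test compares the members with them.

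The small number of calls stood beside a wide spread between the duplexes. Relative to the control mean, on the log2(CPM + 0.5) scale, the median of the 48 members was -1.05 with duplex 1, 0.07 with duplex 2 and -0.76 with duplex 3. The same median lay between -0.08 and 0.06 in the 4 control libraries and was 0.07 in the mock library. Over 1.5-fold lower than the control mean were 44 members with duplex 1 (7.47% of all tested genes), 1 with duplex 2 (4.91%) and 33 with duplex 3 (6.20%), and 0 members were over 1.5-fold higher with any of them. The 1 member that was over 1.5-fold lower with duplex 2 was MCM5. Below all 4 control libraries were 46 members with duplex 1 (33.1% of all tested genes), 18 with duplex 2 (31.0%) and 44 with duplex 3 (33.4%), while 22 members lay above all controls with duplex 2 (31.6%) and 8 within their range. For 26 members duplexes 1 and 3 were below every control and duplex 2 was not, where 7.60% of all tested genes showed this pattern. The order duplex 1 below duplex 3 below duplex 2 held for 45 members and for 19.9% of all tested genes. This order is that of the member medians above, so its count, like that of the pattern before it, describes the same values again. Duplex 1 gave the lowest of the 7 values for 43 members (21.5% of all tested genes), duplex 3 for 3 (17.9%) and duplex 2 for 0 (16.9%). Each duplex has 1 library and all 3 are set against the same controls, so these counts describe the libraries and carry no test of a difference between duplexes.

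**Figure D1:**
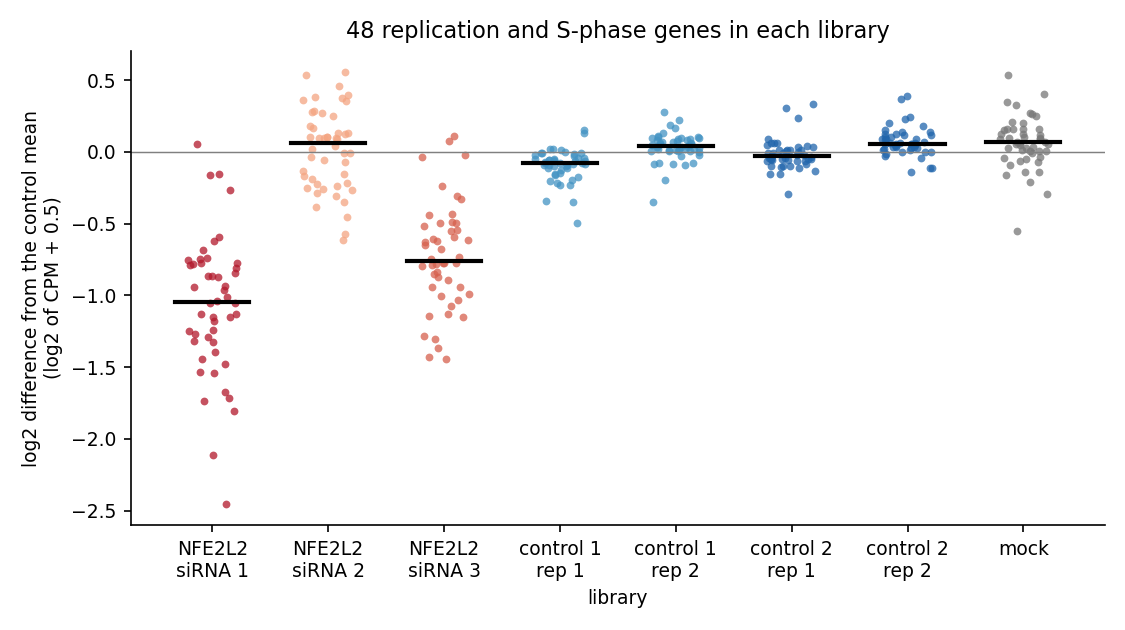
Log2 difference of each of the 48 genes from the control mean (y axis, log2 of CPM + 0.5) in each of the 8 libraries (x axis), 1 point a gene, with the median marked. The medians are -1.05, 0.07 and -0.76 for NFE2L2 duplexes 1, 2 and 3, between -0.08 and 0.06 in the controls and 0.07 in the mock library.

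The fit without the duplex 2 library called 32 members lower and 0 higher by the edgeR test at 0.01, where 2.94% of all genes tested in that fit were lower. The median log2 fold change of the members in it was -0.90. Duplex 2 was the NFE2L2 siRNA library with the members nearest the control mean (median log2 difference 0.07). A higher count without it follows from that choice and is no separate support. That fit sets 1 library each of duplexes 1 and 3 against repeats of 2 control duplexes. Each of the other omissions left fewer calls than the 2 of the full set. Lower were 1 member without duplex 1, 0 without duplex 3, 1 without replicate 1 of control duplex 1, and 0 without its replicate 2 or without either replicate of control duplex 2. The NFE2L2 mRNA itself was higher with duplex 2 than with duplexes 1 and 3 (52.0 against 32.9 and 29.7 CPM). The 3 NRF2 targets were likewise highest with duplex 2 among the duplexes, NQO1 at 583 CPM against 416 and 461 CPM with duplexes 1 and 3, GCLM at 49.2 CPM against 40.2 and 35.9 CPM, and TXNRD1 at 346 CPM against 323 and 261 CPM. All of these values stayed below every control. Their part in the difference between libraries was not tested. The share of reads on no gene was 15.3% with duplex 1 and 12.8% with both other duplexes, against 11.7% to 15.0% in the controls.

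Promoters of the members were read from RefSeq (GRCh38.p14, 250 bases before to 50 after each annotated start), where 42 of the 48 members had an entry. They were searched on both strands for 12 E2F-type words, TTTGGCGC, TTTCCCGC, TTTCGCGC, TTTGCCGC, TTTGGCGG, TTTCCCGG, TTTCGCGG, TTTGCCGG, TTCCCGCC, TTGGCGCC, TTCGCGCC and TTGCCGCC, which overlap one another and were merged where they did. The members without an entry were MCM4, MCM5, GINS4, CCNE2, E2F8 and RPA2, so MCM5, which passed the test, was not searched. At least 1 word was found for 32 of the 42 members (76.2%), for 12.1% of the 27305 genes of the table and for 19.1% of the 12068 tested genes in it. The antioxidant response element letters TGACNNNGC, the element that NRF2 binds, were found for 10 members (23.8%) and for 16.1% and 19.1% of the same gene sets. Related lists described further below were searched in the same way. E2F-type words were found for 48.3% of the other replication genes, 42.9% of the regulators of S-phase entry and 18.8% of the G2 and M genes. The antioxidant response element letters were found for 10.3%, 14.3% and 18.8% of them. A match is a description of letters and not a bound site. Shown are MCM3 and ORC1, which were among the members with the lowest p and hold E2F-type words (capitals), RRM2, which passed the test and holds none of these words at either of its annotated starts, and RPA1, which holds 1 and was not lower. MCM3 is read from the minus strand of chr6:52284693-52284992, ORC1 from the minus strand of chr1:52404374-52404673, RRM2 from the plus strand of chr2:10122489-10122788 and RPA1 from the plus strand of chr17:1829755-1830054.
MCM3: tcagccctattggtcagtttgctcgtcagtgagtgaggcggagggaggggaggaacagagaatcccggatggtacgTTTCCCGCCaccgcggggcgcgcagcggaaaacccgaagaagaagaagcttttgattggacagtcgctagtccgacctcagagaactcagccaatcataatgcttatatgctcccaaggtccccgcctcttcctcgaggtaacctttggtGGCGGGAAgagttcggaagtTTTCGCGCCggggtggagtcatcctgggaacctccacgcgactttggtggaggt
ORC1: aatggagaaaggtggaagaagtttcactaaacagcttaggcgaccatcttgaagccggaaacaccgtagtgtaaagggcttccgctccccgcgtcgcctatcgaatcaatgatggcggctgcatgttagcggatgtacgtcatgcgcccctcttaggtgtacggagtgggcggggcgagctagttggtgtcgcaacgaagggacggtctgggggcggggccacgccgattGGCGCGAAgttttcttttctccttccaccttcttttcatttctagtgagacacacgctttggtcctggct
RRM2: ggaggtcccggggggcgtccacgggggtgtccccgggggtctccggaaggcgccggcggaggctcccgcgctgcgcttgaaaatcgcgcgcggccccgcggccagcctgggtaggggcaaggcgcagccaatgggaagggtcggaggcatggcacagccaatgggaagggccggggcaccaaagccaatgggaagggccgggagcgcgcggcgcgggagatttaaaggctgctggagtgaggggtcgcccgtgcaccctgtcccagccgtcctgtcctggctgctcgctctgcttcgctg
RPA1: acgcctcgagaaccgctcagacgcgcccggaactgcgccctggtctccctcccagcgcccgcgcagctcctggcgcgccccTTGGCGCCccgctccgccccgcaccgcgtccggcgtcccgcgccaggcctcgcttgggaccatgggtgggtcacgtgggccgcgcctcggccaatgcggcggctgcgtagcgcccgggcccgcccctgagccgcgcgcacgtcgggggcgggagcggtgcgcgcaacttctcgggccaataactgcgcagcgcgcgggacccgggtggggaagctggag
The 3 stretches of MCM3 begin at positions -174, -24 and -4 from the annotated start, the stretch of ORC1 at -20 and that of RPA1 at -169. RFC1, RPA1 and GINS3, the 3 members with a log2 fold change above 0, all hold an E2F-type word (without duplex 2 the values of RPA1 and GINS3 were -0.05 and -0.16), and CCNE1, BRCA1 and FEN1 hold none in these windows.

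**Figure D2:**
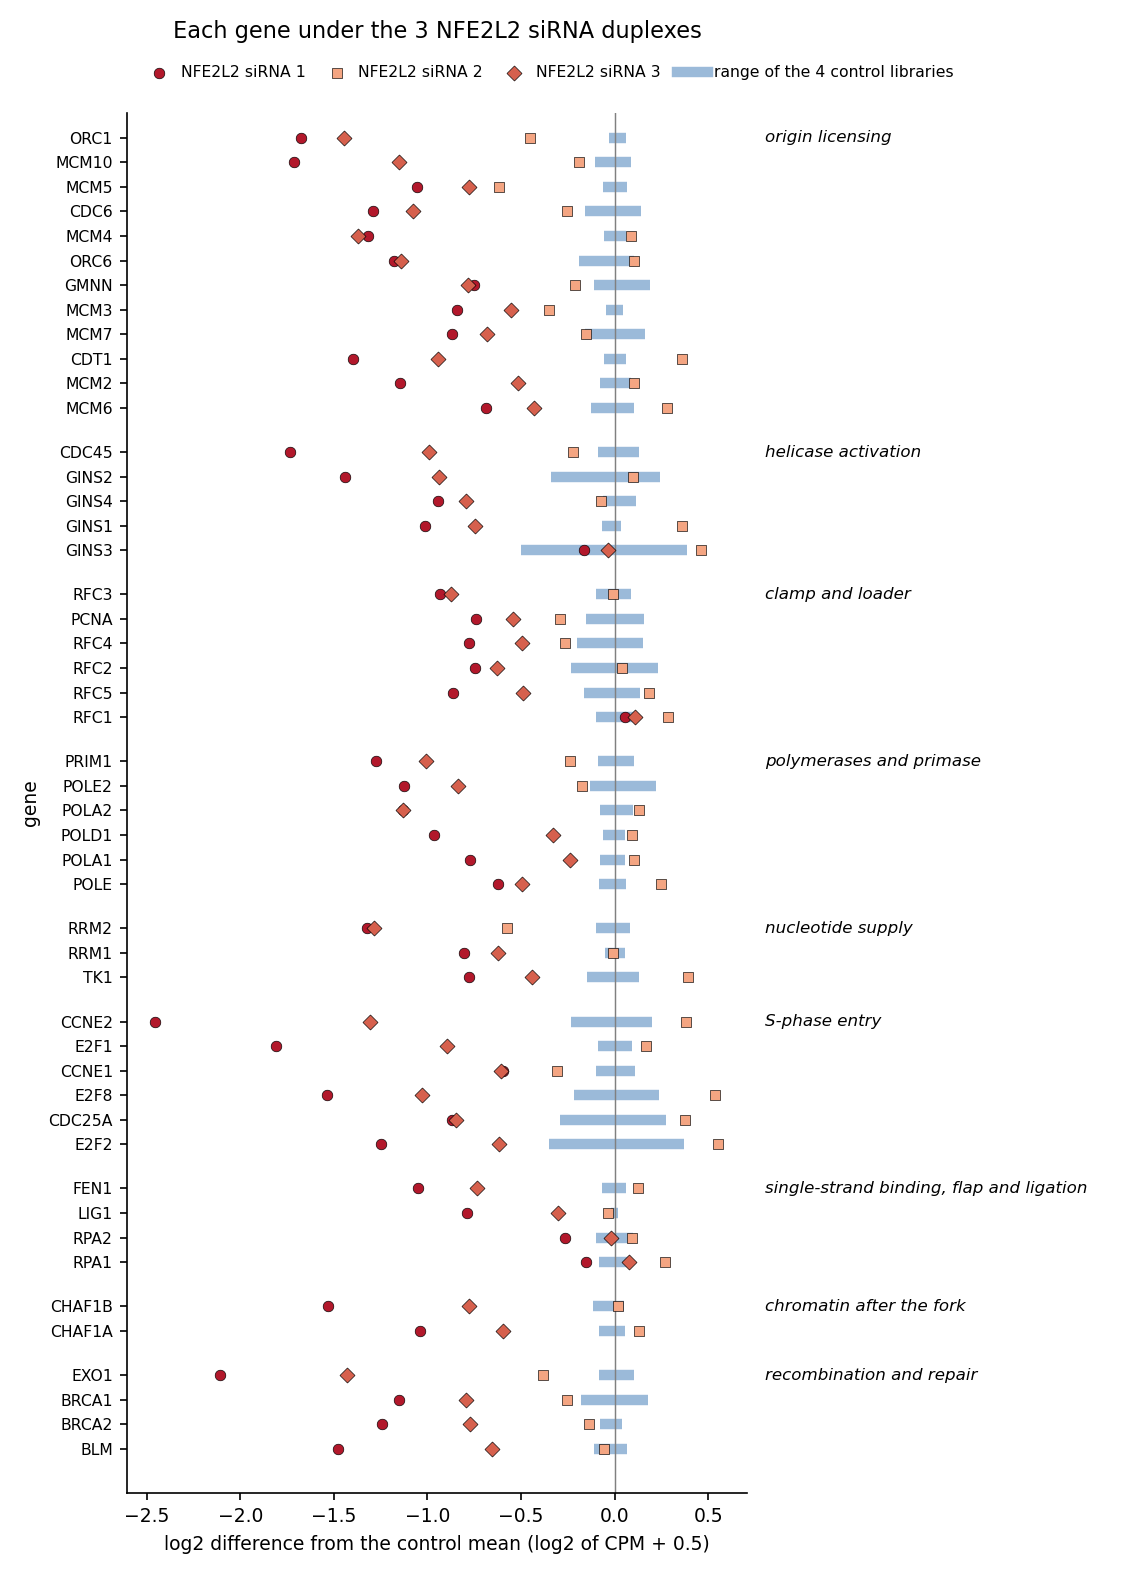
Log2 difference of each gene (y axis, grouped by role) from the control mean (x axis, log2 of CPM + 0.5) with NFE2L2 duplexes 1 (circles), 2 (squares) and 3 (diamonds), and the range of the 4 control libraries (blue bars). Duplex 1 lies below the controls for 46 genes, duplex 3 for 44 and duplex 2 for 18 (33.1%, 33.4% and 31.0% of all tested genes).

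Origin licensing held 12 members, of which MCM5 passed the test. Counted in this group were also GMNN, the inhibitor of CDT1, and MCM10, which joins the helicase at activation. The median log2 fold change of the group was -0.60, and all 12 members were below every control with duplex 1 and with duplex 3, against 6 with duplex 2. Of all tested genes 33.1%, 33.4% and 31.0% were below every control with duplexes 1, 3 and 2. MCM5 (ENSG00000100297.11, GRCh37 chr22:35796127-35821424, plus strand) encodes a subunit of the MCM2-7 helicase. It was at 48.2, 65.4 and 58.6 CPM with NFE2L2 duplexes 1, 2 and 3, at 99.5, 105, 96.2 and 102 CPM in the control libraries and at 107 CPM in the mock library. The groups did not overlap, and MCM5 fell by 0.81 on the log2 scale (adjusted p = 0.00272, standard error 0.11), from 101 ± 3.87 CPM (SD, n = 4) to 57.4 ± 8.70 CPM (SD, n = 3). The call was lost without duplex 3 (adjusted p = 0.0125), without replicate 2 of control duplex 1 (0.0149) and without either replicate of control duplex 2 (0.0102 and 0.0117), and with control duplex 1 or 2 as the sole control (0.0373 and 0.0555). The 4 controls are repeats of 2 duplexes, and with the repeats of each duplex summed the adjusted p of MCM5 in the edgeR test was 0.0593.

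MCM3, another subunit of the same helicase (chr6:52128812-52149679, minus strand), was at 64.9, 91.4 and 79.4 CPM against 114, 120.4, 113 and 119 CPM in the controls and 130.0 CPM in the mock library. No NFE2L2 siRNA value reached the lowest control, with a log2 fold change of -0.57 (adjusted p = 0.0173, standard error 0.12). ORC1, the largest subunit of the origin recognition complex (chr1:52838501-52870095, minus strand), was at 10.4, 24.9 and 12.3 CPM against 34.0, 35.7, 33.8 and 33.6 CPM in the controls and 34.5 CPM in the mock library. Its log2 fold change was -1.11 (adjusted p = 0.0294, standard error 0.26), and the value with duplex 2 lay between the controls and the other two duplexes. CDC6, which loads the helicase together with CDT1, was at 46.8, 96.5 and 54.3 CPM against 103, 121, 111 and 127 CPM, and 108 CPM in the mock library (log2 fold change -0.81, adjusted p = 0.0524, standard error 0.22). GMNN encodes geminin, the inhibitor of CDT1, and was at 23.4, 34.1 and 22.8 CPM against 38.6, 45.2, 36.7 and 38.5 CPM, and 35.9 CPM in the mock library (log2 fold change -0.57, adjusted p = 0.051, standard error 0.15).

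Within the helicase the subunits took different places relative to the controls in the single duplex 2 library. Of all tested genes 31.6% were above every control in that library. MCM4 was at 79.3, 211 and 76.4 CPM with duplexes 1, 2 and 3 against 190.2 to 207 CPM in the controls. Its value with duplex 2 lay just above the control range, and those with duplexes 1 and 3 were far below it. The log2 fold change of MCM4 over the 3 duplexes was -0.70 (adjusted p = 0.199). In the edgeR fit without duplex 2, which leaves out the highest of the 3 values, it was -1.36 (adjusted p = 7.88e-05). MCM2 and MCM6 were likewise above all controls with duplex 2, at 94.26 and 104 CPM against highest controls of 93.25 and 91.89 CPM. Their log2 fold changes over the 3 duplexes were -0.43 and -0.22. MCM7 was at 119.5, 196 and 136 CPM against 196 to 245 CPM, with -0.54 for its log2 fold change (adjusted p = 0.0714). MCM10, a scaffold that joins the helicase at activation, was at 19.2, 56.0 and 28.5 CPM against 59.5 to 67.9 CPM (adjusted p = 0.0917). CDT1 was at 6.52, 23.2 and 9.12 CPM against 17.2 to 18.8 CPM and ORC6 at 12.9, 32.2 and 13.3 CPM against 26.1 to 32.2 CPM, both with duplex 2 at or above the highest control.

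Helicase activation was represented by CDC45 and the 4 GINS subunits, of which 0 passed the test, with a median log2 fold change of -0.56. CDC45, the fork helicase cofactor, was at 6.52, 19.5 and 11.3 CPM against 21.5 to 25.0 CPM in the controls (log2 fold change -0.88, adjusted p = 0.0945). GINS1, GINS2 and GINS4 had log2 fold changes of -0.34, -0.64 and -0.56, and each was below every control with duplexes 1 and 3 (3392 of the 17811 tested genes were). GINS3 had NFE2L2 siRNA values of 12.8, 20.1 and 14.1 CPM that overlapped control values of 10.1 to 19.03 CPM (log2 fold change 0.07, adjusted p = 0.884). Its controls were at 10.1 and 12.5 CPM with control duplex 1, and at 17.9 and 19.03 CPM with control duplex 2. Against control duplex 2 alone, NFE2L2 duplexes 1 and 3 were below and duplex 2 above. The difference of GINS3 from the rest of its complex thus depends on the control duplex.

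The clamp and its loader were PCNA and RFC1 to RFC5, with 0 of 6 past the test at 0.01 and a median log2 fold change of -0.46. PCNA (chr20:5095599-5107272, minus strand) was at 313, 428 and 359 CPM against 583, 574, 471 and 476 CPM in the controls and 584 CPM in the mock library. Every NFE2L2 siRNA value was below the lowest control, and the log2 fold change was -0.52 (adjusted p = 0.0394, standard error 0.13). PCNA also had the highest control level of the 48 members per length, 375 CPM per kb of exon, against a median of 11.5. RFC4, a small loader subunit, was at 19.4, 27.9 and 23.6 CPM against 29.1, 35.7, 32.6 and 37.4 CPM, and 40.6 CPM in the mock library (log2 fold change -0.51, adjusted p = 0.0569, standard error 0.14). The other small subunits RFC2, RFC3 and RFC5 had log2 fold changes of -0.42, -0.55 and -0.33. RFC1, the large subunit, was the member with the highest log2 fold change, 0.15 (adjusted p = 0.374), and its NFE2L2 siRNA values of 64.6, 75.9 and 67.0 CPM overlapped the control values of 57.9, 58.5, 64.9 and 67.5 CPM. The mock value was 69.3 CPM.

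Polymerases and primase comprised POLA1, POLA2, PRIM1, POLD1, POLE and POLE2, with 0 of 6 past the test and a median log2 fold change of -0.47. PRIM1, the catalytic primase subunit that starts each Okazaki fragment, was at 11.7, 24.4 and 14.1 CPM against 27.1, 31.1, 27.6 and 29.9 CPM, and 30.4 CPM in the mock library (log2 fold change -0.79, adjusted p = 0.0566, standard error 0.22). POLE2, an accessory subunit of the leading-strand polymerase, was also below every control with all 3 duplexes (log2 fold change -0.69, adjusted p = 0.0842). The catalytic subunits POLA1, POLD1 and POLE had smaller values of -0.26, -0.34 and -0.24, and POLA2 had -0.59. With duplex 2, POLA1, POLA2, POLD1 and POLE were above every control, as were 31.6% of all tested genes.

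Nucleotide supply held RRM1, RRM2 and TK1. RRM2 (ENSG00000171848.9, chr2:10260825-10351851, plus strand) encodes the S-phase subunit of ribonucleotide reductase, which makes deoxynucleotides. It was at 87.4, 147 and 89.7 CPM with NFE2L2 duplexes 1, 2 and 3, at 205, 222, 218 and 232 CPM in the controls and at 197 CPM in the mock library. All 3 values lay below every control, and RRM2 fell by 1.02 on the log2 scale (adjusted p = 0.00769, standard error 0.17), from 219.6 ± 11.3 CPM (SD, n = 4) to 108 ± 33.8 CPM (SD, n = 3). Leaving out 1 library at a time raised its adjusted p to as much as 0.0347 and left it over 0.01 in 6 of the 7 omissions, the exception being duplex 2, and it was 0.0734 and 0.0814 with control duplex 1 or 2 as the sole control. With the repeats of each control duplex summed, the adjusted p of RRM2 in the edgeR test was 0.0872. For RRM1, the partner subunit, the fold change was -0.44 on the log2 scale (adjusted p = 0.139). TK1, the thymidine kinase of the salvage pathway, was at 33.4, 76.1 and 42.4 CPM against 52.2 to 63.2 CPM, with duplex 2 above and the others below the control range.

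S-phase entry was represented by CCNE1, CCNE2, CDC25A, E2F1, E2F2 and E2F8, with 0 of 6 past the test and a median log2 fold change of -0.47. CCNE1 encodes cyclin E1, a partner of CDK2, and was at 19.5, 23.9 and 19.3 CPM against 28.7, 32.1, 27.7 and 30.4 CPM, and 28.4 CPM in the mock library (log2 fold change -0.51, adjusted p = 0.026, standard error 0.11). Its 3 duplexes lay close together and below every control. CCNE2, the second cyclin E gene, showed the widest separation of the duplexes, at 2.29, 19.4 and 5.69 CPM against 12.5, 15.7, 14.2 and 17.1 CPM in the controls. Duplex 2 was thus above every control and duplex 1 was the lowest of all, with a log2 difference of -2.45 from the control mean, the lowest of the 48 members in that library. E2F1, a transcription factor that activates S-phase genes, was at 13.9, 56.2 and 26.7 CPM against 47.1 to 53.3 CPM (log2 fold change -0.63, adjusted p = 0.305). CDC25A, E2F2 and E2F8, a phosphatase that activates CDK2, an activating and a repressing E2F factor, were all above every control with duplex 2, at 48.1, 15.1 and 11.96 CPM. So were 31.6% of all tested genes.

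**Figure D3:**
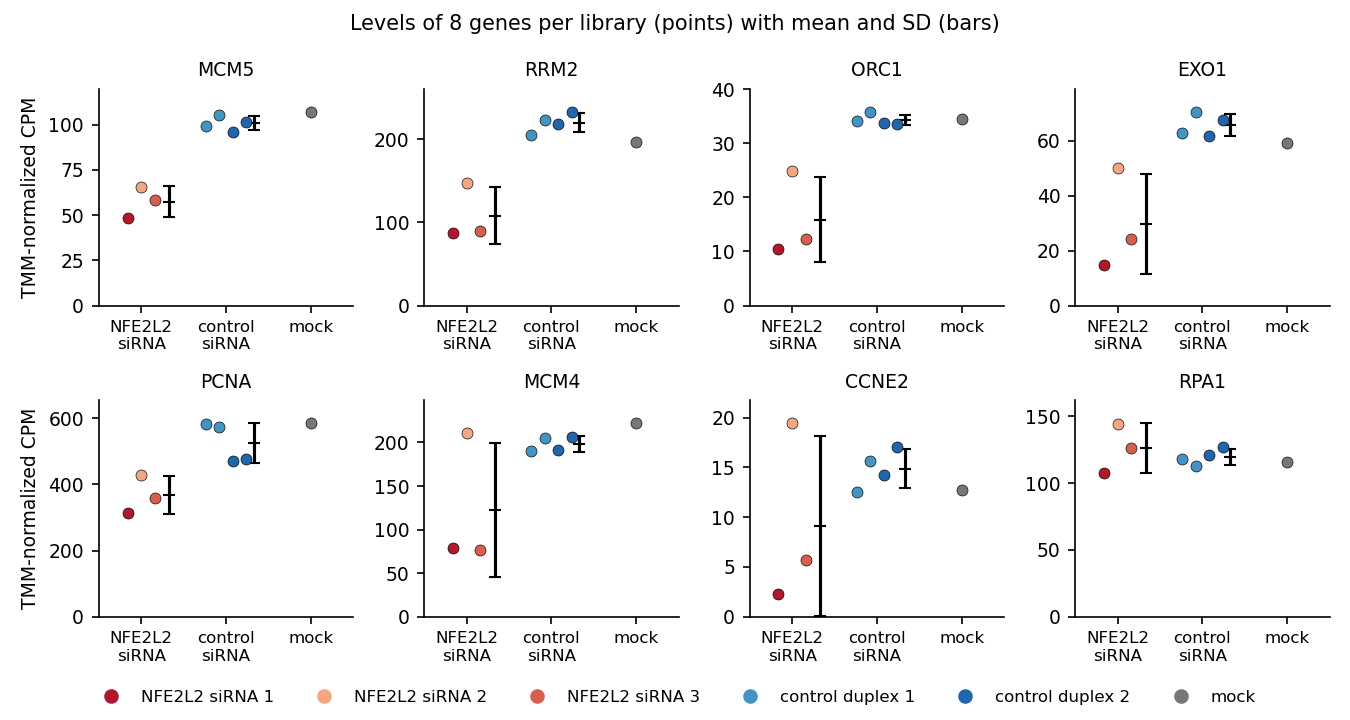
TMM-normalized CPM (y axis, from 0) of 8 genes in each library (points, coloured by duplex), with the mean and SD of each siRNA group (bars). MCM5, RRM2, ORC1, EXO1 and PCNA have all 3 NFE2L2 siRNA libraries below all controls, MCM4 and CCNE2 have duplex 2 above the controls at 211 and 19.4 CPM, and RPA1 overlaps them.

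Single-strand binding, flap removal and ligation showed the highest group median, -0.20. RPA1 and RPA2, subunits of the single-strand binding protein, had log2 fold changes of 0.07 and -0.06 (adjusted p = 0.718 and 0.785). RPA1 was at 108, 144 and 126 CPM against 113 to 127 CPM in the controls. FEN1, the flap endonuclease, was at 51.6, 118 and 64.5 CPM against 102 to 112 CPM, and LIG1, the ligase that joins Okazaki fragments, was below every control with all 3 duplexes, at 40.0, 67.8 and 56.1 CPM against 68.5 to 70.3 CPM (log2 fold change -0.34, adjusted p = 0.198). CHAF1A and CHAF1B, the chromatin assembly factor subunits that place histones behind the fork, had log2 fold changes of -0.43 and -0.64 and did not pass the test.

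Recombination and repair had the lowest group median, -0.68, with 0 of 4 members past the test. EXO1, an exonuclease of mismatch and break repair, had the lowest log2 fold change of all members, -1.15 (adjusted p = 0.0609, standard error 0.33). It was at 14.8, 50.1 and 24.1 CPM against 62.7, 70.4, 61.8 and 67.5 CPM, and 59.3 CPM in the mock library, so that the groups were apart while the duplexes also lay far from each other. BRCA1, which acts in homologous recombination, was at 32.6, 61.2 and 41.9 CPM against 64.6, 68.7, 77.8 and 82.9 CPM, and 76.0 CPM in the mock library (log2 fold change -0.70, adjusted p = 0.0547, standard error 0.19). BRCA2 was likewise below every control with all 3 duplexes (-0.66, adjusted p = 0.095), and BLM, a RecQ helicase, had a log2 fold change of -0.63.

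The members were also compared between the control duplexes, which target no gene by design. Control duplex 2 was higher than control duplex 1 for E2F2 and GINS3 by the edgeR test at 0.01 (1.77% of 17261 tested genes were higher) and lower for 0 members (1.51% were lower). E2F2 was at 3.97, 15.1 and 6.42 CPM with NFE2L2 duplexes 1, 2 and 3 and at 14.9 CPM in the mock library. It was at 12.9 and 13.2 CPM with control duplex 2 and at 7.82 and 7.83 CPM with control duplex 1, a log2 fold change of 0.74 (adjusted p = 0.00121, standard error 0.09). GINS3 was at 17.9 and 19.03 CPM against 10.1 and 12.5 CPM, and at 19.3 CPM in the mock library (log2 fold change 0.71, adjusted p = 0.00325, standard error 0.11). CDC25A had lower values with control duplex 2, 30.0 and 34.1 CPM against 40.4 and 44.8 CPM (log2 fold change -0.40, adjusted p = 0.0146), as had PCNA (-0.28, adjusted p = 0.0214). With NFE2L2 siRNA CDC25A was at 19.97, 48.1 and 20.3 CPM, and in the mock library at 25.0 CPM. BRCA1 and RFC1 had log2 fold changes of 0.28 and 0.19 (adjusted p = 0.0256 and 0.0747). The calls of E2F2 and GINS3 were lost without replicate 1 of control duplex 2 (adjusted p = 0.247 and 0.347) or its replicate 2 (0.194 and 0.25), and when genes with 1 read were also tested (0.0381 and 0.0864). MCM5 and RRM2 showed control differences of -0.05 and 0.08.

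Among the mock values, 23 members lay within the control range, 19 above it (22.6% of all tested genes) and 6 below it (22.5%). None of the 48 was over 1.5-fold lower (0 members, 1.57% of all tested genes) or higher (0 members, 0.466%) than the control mean. The log2 difference ran from -0.55 for CDC25A to 0.53 for E2F2, and the values of both genes in the separate control duplexes are given above.

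Histone genes of the replication-dependent clusters, whose mRNAs are made in S phase and lack a poly(A) tail, were counted in these total RNA libraries as a further S-phase readout. The 38 genes matched by symbol summed to 1475, 2955 and 1930.3 CPM with NFE2L2 duplexes 1, 2 and 3, to 2718 to 2920.2 CPM in the 4 control libraries and to 3100 CPM in the mock library. On this scale, which has no TMM factor, duplexes 1 and 3 were below and duplex 2 just above the control range. Over the 8 libraries the TMM factor was 1.02 for duplex 2, and 0.956 and 0.983 for control duplex 1. The place of duplex 2 above the range thus depends on the scale, while the order was that of most replication genes. The sum is 1 value per library and was not tested.

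**Figure D4:**
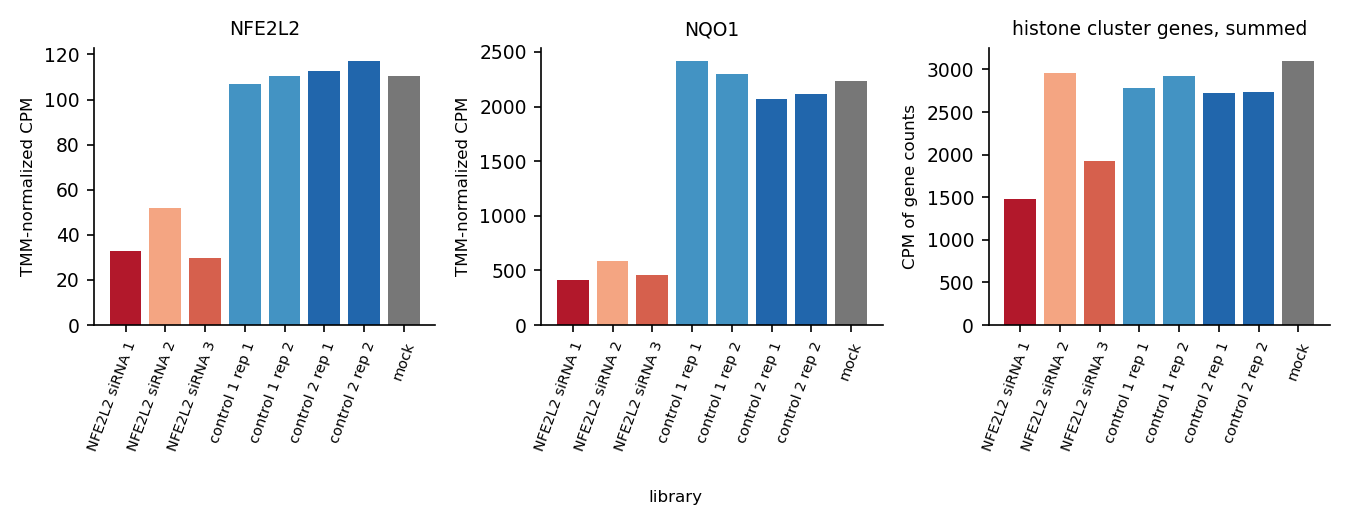
NFE2L2 and NQO1 levels (CPM after TMM) and the summed level of 38 histone cluster genes (CPM without TMM) in the 8 libraries (y axes from 0). NFE2L2 and NQO1 are below all controls with all 3 duplexes. The histone sum is below them with duplexes 1 and 3 (1475 and 1930.3 CPM) and, without TMM, just above them with duplex 2 (2955 CPM).

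Of 40 other replication genes, such as the remaining origin and polymerase subunits, ASF1A was lower by the edgeR test at 0.01 and 0 were higher (1.36% and 1.39% of all tested genes), with a median log2 fold change of -0.43. ASF1A, a histone chaperone, was at 18.9, 18.7 and 14.2 CPM against 34.9 to 38.0 CPM in the controls, a log2 fold change of -1.05 (adjusted p = 0.00107, standard error 0.12), and duplex 2 was as low as duplex 1. By duplex the medians of this list were -0.73, -0.12 and -0.53, and 17 of the 40 were lower in the fit without duplex 2, where 2.94% of all genes tested were. The 20 G2 and M genes had 0 calls in either direction and a median log2 fold change of -0.38, with medians of -0.77, 0.11 and -0.55 for duplexes 1, 2 and 3. Without duplex 2, 10 of these 20 were lower, beside the same 2.94%. Duplex 2 had the highest median of the 3 duplexes in both lists, so the counts without it describe the duplex medians again.

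Of 26 regulators of S-phase entry, which include the RB family, D cyclins, CDKs and CDK inhibitors, 24 were tested, 0 passed the test in either direction, and the median log2 fold change was -0.15. The medians by duplex were -0.34, 0.11 and -0.08. CDK6, a partner of the D cyclins, named here after its values were seen, had the lowest adjusted p of the list (0.0295) with a log2 value of 0.64. CCND3, a D cyclin, differed by 1.31 on the log2 scale between the control duplexes and CCND1 by -0.56.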

How the data were processed

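A549 RNA-seq libraries of 3 NFE2L2 siRNA duplexes, 4 control siRNA transfections and 1 mock transfection were grouped by their labels. The authors deposited raw counts per gene, without normalization, made with HISAT 0.1.6 and HTSeq 0.6.0 per the submitters' processing notes, on hg19 with GENCODE v19 (LINC00942 from RefSeq), in intersection-strict mode with the reverse strand setting. Reads that HTSeq assigned to no gene were not part of the totals.

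Members, role groups and lists were chosen with earlier results of these data known. Symbols were paired with identifiers through GENCODE v44 mapped to GRCh37, which held 55538 of 60291 identifiers, so that UHRF1 had no match. Named pseudogenes of the members had at most 8 reads in a library. TMM factors were 0.957 to 1.02 over the 7 siRNA libraries.

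Genes that reached 10 reads in 1 or more of these 7 were compared with edgeR 4.0.16 in R 4.3.3 (glmQLFit and glmQLFTest, prior count 0.125); p-values were two-sided, adjusted by the Benjamini-Hochberg method across every gene tested, and called at 0.01. Standard errors were derived from the fold change and its F statistic. Single libraries were described as the log2 of CPM + 0.5 minus the control mean, with 1.5-fold as the limit. The mock library entered no test except the alternative that added it to the controls. Values in every library are given for the 12 members with the lowest p and for the 6 with the lowest p between the control duplexes. The alternatives were DESeq2 1.42.0, limma-voom (limma 3.58.1), other scalings, filters, control groups and thresholds, and the omission of each library. The tests were checked on simulated counts, drawn for independent libraries with the same spread setting for every gene. That setting lacks the wide spread between the NFE2L2 duplexes and the repeats of each control duplex, so it gives no error rate for this design. The repeat numbers of the control duplexes were checked for pairing. Positions of genes are GRCh37, promoters GRCh38.p14. The siRNA sequences, RT-qPCR and tumour data of the study were not used here.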

Additional observations from a re-analysis of the deposited data

Results flagged for a closer look

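CHAF1B, a subunit of the chromatin assembly factor, was at 19.7 CPM in control duplex 1 replicate 1, apart from the other 3 control libraries, which held 21.8 to 22.1 CPM. The gap was 0.842 of the range of the 4 controls, above Dixon's critical value for 4 values. Of 48 members examined in this way 1 stood out, where chance at 1 in 20 would give 2.4.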

How the results depend on the processing

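The members called lower with NFE2L2 siRNA numbered 2 with TMM and edgeR and 10 with DESeq2, 9 with a filter of 1 read in 1 library, 6 at a threshold of 0.05, and 0 with control duplex 1 alone, control duplex 2 alone or the repeats of each control duplex summed. Over all tested genes, 243 lower and 248 higher became 592 and 722 with DESeq2, 96 and 24 with control duplex 1 alone, 53 and 6 with control duplex 2 alone, 75 and 3 with summed control duplexes, 445 and 574 with the filter of 1 read, and 631 and 825 at 0.05, while adding the mock library gave 451 higher. With single libraries omitted, 0 to 32 members were lower, the 32 without NFE2L2 duplex 2, and 0 were higher. At 0.05, an alternative chosen after seeing the data, the omissions gave 2 to 42 members lower, with no count over all tested genes at that threshold. The median log2 fold change of the members stayed between -0.90 and -0.33, and at 0.01 all tested genes gave 128 to 521 lower and 35 to 394 higher. Between the control duplexes, 0 members lower and 2 higher became 2 lower with DESeq2, 2 lower at 0.05, and 0 higher with the filter of 1 read. Over all genes 261 lower and 305 higher became 1 and 3 with that filter, 924 and 812 at 0.05, and 468 higher with library size alone. Omitting single control libraries gave 0 to 2 members lower and 0 to 5 higher, a median log2 fold change of the members of -0.010 to 0.090, and 0 to 1201 genes lower and 0 to 855 higher. These omissions leave 1 library in an arm, which is assumed to vary like the other arm. At 2-fold instead of 1.5-fold, 26, 0 and 11 members were lower with NFE2L2 duplexes 1, 2 and 3 (2.48%, 1.60% and 1.64% of all tested genes). The causes of these shifts were not tested.

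None of the 22 single-gene fold changes of both comparisons, the 4 knockdown checks included, changed sign under any alternative run. Apart from the checks, these belonged to the members with the lowest p in each comparison, a choice that favours stable signs. Among the other values for NFE2L2 against control siRNA, those of TK1, E2F2, RPA1, RPA2 and GINS3 changed sign when single libraries were omitted. With the repeat number as a replicate block, the control duplex comparison gave 2 members lower and 6 higher, and 1467 genes lower and 1148 higher. The repeats share only a number: over 17811 genes the deviations of repeat 1 correlated at 0.171 between the 2 duplexes, with 2 pairs. No paired fit was possible for NFE2L2 against control siRNA, since the labels number the NFE2L2 libraries by duplex. The lowest count of any member was 82 reads, for CCNE2 with NFE2L2 duplex 1.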
